A study of Homo sapiens with 32 samples.

Results

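The comparison described here is that of RNA counted after 15 min of 4-thiouracil labelling with RNA counted at 0 min in HEK293 cells. Its members are the libraries whose labelled time is 15 or 0 min, 16 of the 32 libraries of the series. The 4 libraries of each biological replicate, called a culture below, were summed, which gave 2 cultures at 15 min and 2 at 0 min, of 8 cultures in all. All genes of the table were then compared. HEK293 is an established human cell line of embryonic kidney origin that grows without limit. The labels give no treatment other than the incubation, which lasted 15 or 0 min in the cultures compared here and 5 or 30 min in the others. The labels name polyadenylated RNA, cite a published transient transcriptome protocol for the cell culture and a published tagged reverse transcription protocol for the cDNA, and do not say what the 0 min cells received or whether tagged RNA was isolated before counting.

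4-Thiouracil is a uracil analogue that cells build into RNA while it is being made. RNA made during a short pulse is rich in transcripts that are started often. Compared with the RNA present at any moment, it holds a larger share of short-lived transcripts, such as those of signalling genes. It holds a smaller share of long-lived ones, such as those of ribosomes, mitochondria and the cytoskeleton. Whether RNA lifetime bears on the changes below was not tested.

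The 15 min cultures held 1339808 and 1347710 counts and the 0 min cultures 1217384 and 1022116, from libraries of 287859 to 366040 counts at 15 min and 228910 to 364696 at 0 min. In all 8 pairs of libraries that share a cDNA, the 2 libraries differed by less than sampling noise, and all libraries of a culture count as 1 sample (n = 2 cultures at each time). Whether the cultures were grown apart is not said beyond the label of biological replicate, and p-values measure the spread between these cultures only. Of 12 markers listed for HEK293, 9 had counts in every culture. The mesenchymal filament gene VIM had 257 and 243 CPM at 15 min, against 500.4 and 432 CPM at 0 min. The neuronal cadherin CDH2 had 299.96 and 243 CPM at 15 min, against 121 and 88.0 CPM at 0 min. LIN28B, an RNA-binding protein of embryonic cells, had 111 and 109 CPM at 15 min, against 48.3 and 29.3 CPM at 0 min. HOXA10 and TUBB2B had 18.7 to 74.3 CPM at 15 min, against 9.27 to 70.1 CPM at 0 min. The keratins KRT8 and KRT18 and the neurofilament NEFM were low, with 5 to 18 counts a culture at 15 min, against 2 to 21 at 0 min. The kidney regulators PAX2 and EYA1 had 1 and 6 counts in all, and NEFL was not analysed here. Markers of other cell types were at or near 0 counts, with CDH1, KRT5, COL1A2, CDH5, PTPRC, HBB and ALB at 0 in all 4 cultures. CPM here means counts scaled to a common library size by trimmed means (TMM), under which most genes are taken to be level between cultures. CPM values are not divided by transcript length. Changes are compared within a gene, and ranks or classes of genes by CPM are of counts, not of molecules.

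Most genes tested differed between the times. Of 10439 genes, 5683 (54.4%) passed edgeR's quasi-likelihood test at a Benjamini-Hochberg adjusted p under 0.05. At 15 min 3110 (29.8%) of them were higher and 2573 (24.6%) lower than at 0 min. Among genes with at least 4 counts at the lower time, 2389 were called higher and 2072 lower by over 2-fold, 947 and 376 by over 4-fold, and 140 and 18 by over 8-fold. A further 345 genes called higher had only 0 to 3 counts at 0 min, while 3 called lower had so few at 15 min. All changes below are log2 fold changes, 15 min over 0 min, and are relative to the other genes, not numbers of molecules per cell. The median over all genes tested was 0.19 with TMM scaling, 0.09 with RLE size factors and 0.96 with total counts as the only scaling, so a change near 0 can take either sign. With total counts 46.9% of genes were higher and 12.5% lower. In none of the 58 gene lists below were fewer genes called higher, or more called lower, with total counts than with TMM, and 11 of the 29 lists with more genes lower than higher then had more higher than lower. No list was tested against the other genes, and the counts of each list are to be read beside the shares of 29.8% higher and 24.6% lower over all genes.

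The direction of change went with how much of the counted RNA a gene held. Among genes with a mean of 30 to 100 CPM, 43.4% were called higher and 24.8% lower. From 300 to 1000 CPM 6.72% were called higher and 86.4% lower, and above 1000 CPM 2 of 182 genes were called higher and 177 lower, with a median of -1.61. The 50 most abundant genes took 11.6% and 13.4% of the counts in the 15 min cultures, against 21.8% and 23.8% in the 0 min cultures. Genes called higher held 32.5% ± 3.51 of the counts at 15 min and 6.23% ± 0.615 at 0 min (SD, n = 2). Those called lower held 48.0% ± 4.51 at 15 min and 82.3% ± 1.39 at 0 min, values that follow from the calls and are given as a description.

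**Figure D1:**
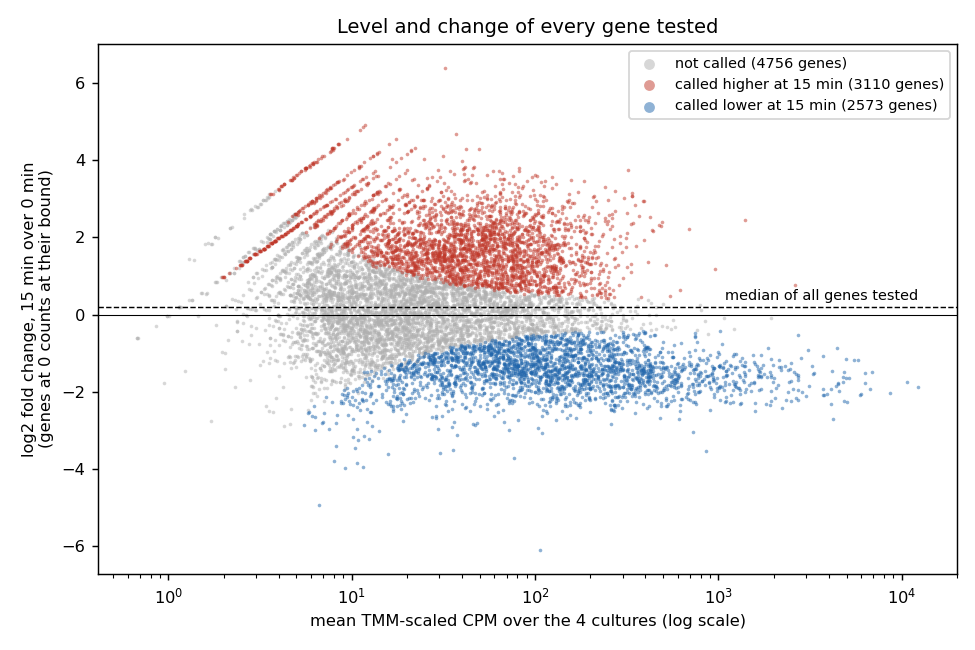
Each point is 1 of 10439 genes, with its mean TMM-scaled CPM over the 4 cultures on a log axis and its log2 fold change (15 min over 0 min) on the vertical axis; genes with 0 counts at a time stand at their bound. Red points are the 3110 genes called higher at 15 min, blue points the 2573 called lower and grey points the 4756 not called, and almost all genes above 1000 CPM are blue.

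Most of the 15 largest rises were of genes with few counts at 0 min, and whether these genes share a function was not tested. ITPR1, the channel that releases calcium from the endoplasmic reticulum, had 78.2 and 63.6 CPM at 15 min, against 2.42 and 3.09 CPM at 0 min, a rise of 4.66 (SE 0.48, adjusted p = 5.9e-10). HOXA13, a homeobox factor of limb and urogenital development, had 98.3 and 89.6 CPM at 15 min, against 3.63 and 6.18 CPM at 0 min (rise of 4.28). HOXB3, of the same family, had 154 and 150.4 CPM at 15 min, against 4.83 and 18.5 CPM at 0 min (rise of 3.79). The rule that named them took genes whose cultures did not overlap between times, as held for 7930 of all 10439 genes (76%). RICTOR, the subunit that defines the growth-control complex mTORC2, had 97.6 and 75.9 CPM at 15 min, against 7.25 and 4.63 CPM at 0 min and rose by 3.81. TRIO, a guanine nucleotide exchange factor, was the most abundant of the 15 at 15 min with 649.7 and 551 CPM at 15 min, against 43.5 and 46.3 CPM at 0 min, and rose by 3.74 (SE 0.22, adjusted p = 3.85e-14). The other 10 rose by 3.73 to 4.29. They were NSUN6, an RNA cytosine methyltransferase, CSGALNACT2, an enzyme of chondroitin sulphate synthesis, PRKD1, a diacylglycerol-activated kinase, PACSIN2, a membrane-bending protein, TAF5L, a subunit of the SAGA coactivator family, MYO9B, an unconventional myosin, PLCB1, a phospholipase that makes the ligand of ITPR1, and SBF2, CRIM1 and the antisense gene IPO9-AS1. NSUN6, CSGALNACT2 and MYO9B had 0 counts in 1 of the 0 min cultures.

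A second group had almost no counts at 0 min. ELAVL2, an RNA-binding protein of neurons, had 128 and 67 counts at 15 min, against 1 and 0 at 0 min, which is 95.6 times as high after scaling (95% counting interval 16.95 to 3794). EPG5, needed for autophagy, was 20.9 times as high (7.00 to 103), with 79 and 49 counts at 15 min, against 2 and 1 at 0 min. GRHL1, an epithelial transcription factor, SDK1, a cell adhesion protein of synapses, and TBX20, a T-box factor of the heart, had 122, 121 and 115 counts over both 15 min cultures, against 3 each at 0 min. These intervals cover counting error only, and counts of 1 cDNA are not independent of each other.

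The 15 largest falls were of genes with various functions, and whether they share one was not tested. RMRP, the RNA of a ribonuclease that processes ribosomal RNA, had 2.59 and 3.42 CPM at 15 min, against 199 and 222 CPM at 0 min, a fall of 6.09 (SE 0.53, adjusted p = 2.66e-11). With 4 and 5 counts left at 15 min, the extent of this fall is known only roughly. EIF3I, a subunit of the eIF3 translation initiation complex, had 108 and 165 CPM at 15 min, against 1638 and 1531 CPM at 0 min and fell by 3.54 (SE 0.21, adjusted p = 3.85e-14). RBM3, an RNA-binding protein induced by cold, had 144 and 174 CPM at 15 min, against 1171 and 1424 CPM at 0 min and fell by 3.03. C9orf78, a spliceosome-associated protein, had 51.1 and 77.3 CPM at 15 min, against 468 and 445 CPM at 0 min. DYNLT3, a dynein light chain, had 16.8 and 30.1 CPM at 15 min, against 189 and 202 CPM at 0 min. SLC50A1, a sugar transporter, had 10.3 and 11.6 CPM at 15 min, against 158 and 128 CPM at 0 min. These too were taken among genes without overlap between times. The other 9 fell by 2.83 to 3.57. Among them were APOBEC3C, a cytidine deaminase that restricts retroviruses, VPS16, a tethering subunit of endosomes and lysosomes, BSCL2, the lipid droplet protein seipin, NABP2, a single-stranded DNA-binding protein, UTP15, of ribosome biogenesis, and SNHG10, a snoRNA host gene.

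**Figure D2:**
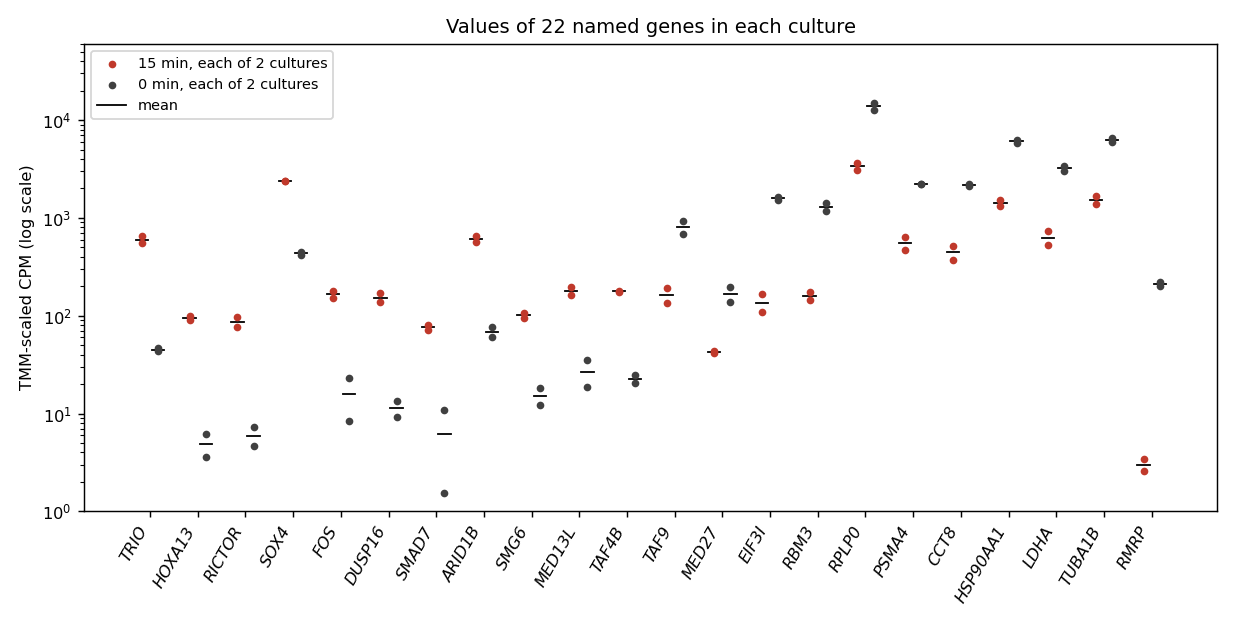
TMM-scaled CPM (log axis) of 22 named genes in each culture, 15 min in red to the left of 0 min in grey, with a bar at the mean of each pair. The points of the 2 times do not overlap in any gene shown. In SMAD7 the cultures at 0 min lie far apart, at 10.9 and 1.54 CPM, against 80.8 and 71.8 CPM at 15 min. RMRP stands at 2.59 and 3.42 CPM at 15 min, against 199 and 222 CPM at 0 min.

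Genes of signal-induced transcription were higher at 15 min or did not pass the test. Of 21 tested transcription factor genes that growth factors and stress induce, 8 rose (38.1%), 0 fell and 13 did not pass. Their median was 1.95, or 1.25 when genes without counts stand at their bound (3 counts over both cultures), against 0.19 over all genes. FOS, a subunit of the AP-1 factor, had 150.0 and 179.8 CPM at 15 min, against 8.46 and 23.2 CPM at 0 min and rose by 3.45 (SE 0.32, adjusted p = 1.31e-10). KLF6, a zinc finger factor, had 477 and 348 CPM at 15 min, against 82.2 and 80.3 CPM at 0 min and rose by 2.34. The others called were NR4A2, ATF3, EGR1, IER2, JUN and MYC, named after their values were seen. NR4A2 had 2 counts at 0 min, and the other 5 rose by 1.25 (MYC) to 2.97 (ATF3). JUND and NR4A1, likewise chosen, stood at 0.13 and -0.60 and did not pass. Of 12 tested MAP kinase feedback genes, which switch growth factor signals off, 7 rose and 0 fell (median 1.75). DUSP1 and DUSP16, phosphatases of MAP kinases, had 219.8 and 158 CPM at 15 min, against 14.5 and 16.99 CPM at 0 min, and 169 and 137 CPM at 15 min, against 13.3 and 9.27 CPM at 0 min, rises of 3.59 and 3.72.

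In TGF-beta and BMP signalling 20 of 25 tested genes rose and 0 fell, with a median of 1.68, the highest share called higher of any list with over 10 genes tested. The rises ran from receptors to intracellular inhibitors. ACVR1B, BMPR1A, TGFBR1, BMPR2 and ACVR1, receptor kinases named after their values were seen, rose by 1.36 to 2.18. SMAD7, an inhibitory SMAD that blocks the receptors, had 80.8 and 71.8 CPM at 15 min, against 10.9 and 1.54 CPM at 0 min and rose by 3.48 (SE 0.42, adjusted p = 1.55e-08). SMAD6, the other inhibitory SMAD, rose by 2.96, and the ubiquitin ligase SMURF2, which removes receptors, by 2.51; both were picked after their values were seen. ID2, a target gene that restrains helix-loop-helix factors, had 1392 and 1252 CPM at 15 min, against 561 and 607 CPM at 0 min, while its relative ID3 stood at 0.14 and did not pass the test. SMAD9, at -1.54, was the lowest and did not pass.

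Other signalling lists had smaller shares called higher than the TGF-beta and BMP list. With TMM scaling the shares of NF-kB feedback and p53 targets were below the 29.8% of all genes. With total counts 6 of 10 NF-kB feedback genes and 10 of 20 p53 targets were higher, against 46.9% of all genes. Of 20 tested Hippo pathway genes, which control organ size, 13 rose and 0 fell (median 1.05). AMOT, a scaffold of the pathway, had 268 and 281 CPM at 15 min, against 104 and 116 CPM at 0 min, and the target gene CYR61, a secreted matrix protein, had 70.5 and 72.5 CPM at 15 min, against 10.9 and 15.4 CPM at 0 min. Of 16 tested clock genes 9 rose and 0 fell (median 1.59). BHLHE40, a repressor of clock genes, had 63.4 and 55.4 CPM at 15 min, against 9.67 and 10.8 CPM at 0 min and rose by 2.53. CSNK1E, a kinase of the clock, rose by 0.71, but did not pass in cDNA preparation 1 alone, where its change was 0.44. Of 28 tested Wnt pathway genes 11 rose and WLS, which carries Wnt proteins to the cell surface, fell by 1.75. GSK3B, a kinase of the beta-catenin destruction complex, had 210.1 and 187 CPM at 15 min, against 16.9 and 32.4 CPM at 0 min, and RNF43, a ligase that removes Wnt receptors, had 108 and 120.4 CPM at 15 min, against 4.83 and 23.2 CPM at 0 min. In Notch signalling 6 of 16 tested genes rose, 0 fell and 10 did not pass (median 0.73), with 3 called higher without culture 2 at 0 min. The coactivator MAML2 rose by 2.95. NFKB1 and NFKBIZ (the second named after its value was seen) were the 2 genes called of 10 tested in NF-kB feedback (20%, median 0.43). NFKB1, a subunit of the factor itself, had 65.9 and 58.1 CPM at 15 min, against 8.46 and 7.72 CPM at 0 min. Of 20 tested p53 targets 4 rose (20%) and 2 fell, or 7 higher without culture 2 at 0 min. SESN1, a stress sensor, rose by 1.94, and CCNG1, a cyclin, fell by 1.37. SESN2, MDM2 and BTG2 also rose and BAX, which promotes apoptosis, also fell; these 4 were named after their values were seen.

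**Figure D3:**
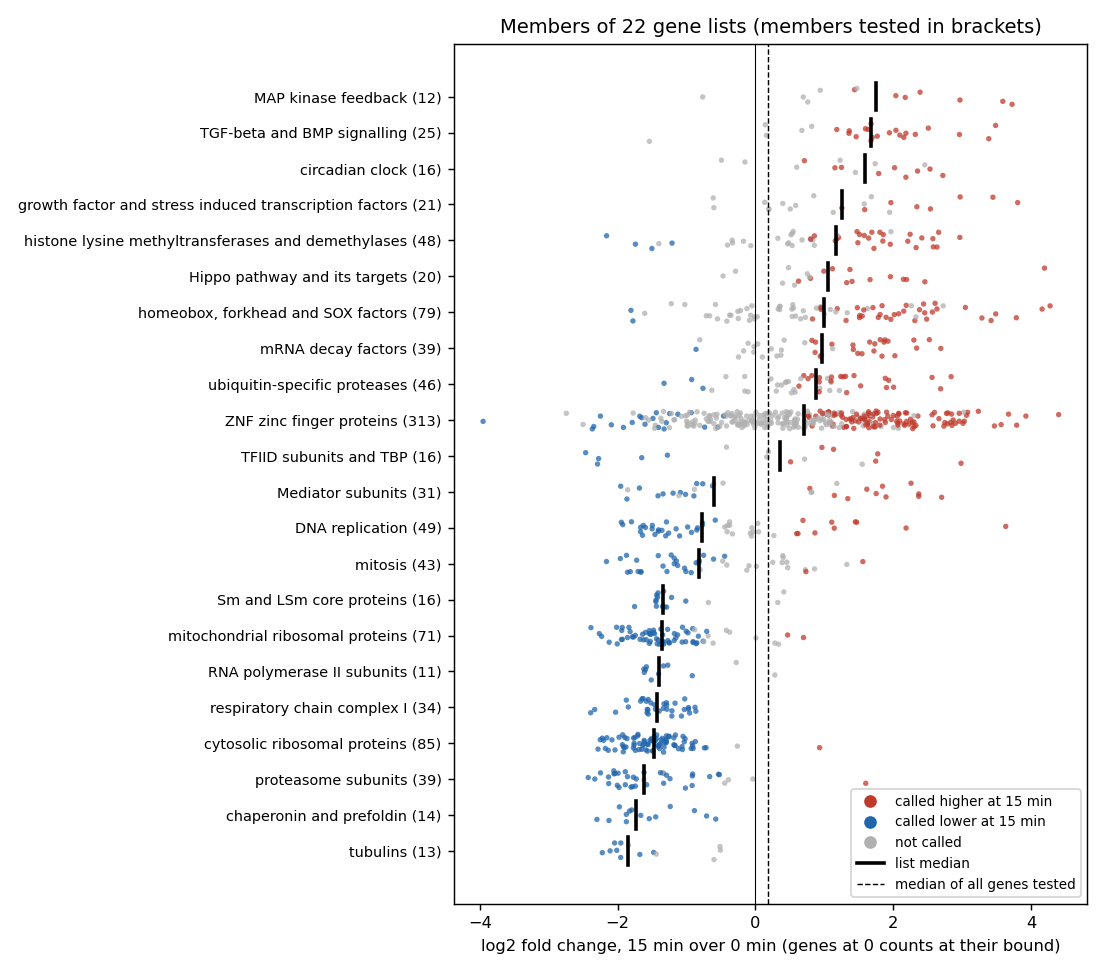
Each point is a tested member of 1 of 22 gene lists, placed by its log2 fold change (15 min over 0 min, genes at 0 counts at their bound) and coloured by its call. Black bars are list medians and the dashed line is the median of all genes tested, 0.19. Signalling and regulatory lists lie right of the line, while ribosome, proteasome, respiratory chain and tubulin lists lie left of 0; with total counts as the only scaling the medians of Mediator and DNA replication turn positive.

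Among developmental transcription factors more genes were called higher than lower, and most did not pass. Of 79 tested homeobox, forkhead, SOX and related genes 35 rose (44.3%, against 29.8% of all genes), 2 fell and 42 did not pass (median 1.00). SOX4, a factor of progenitor cells, had 2364 and 2363 CPM at 15 min, against 453 and 417 CPM at 0 min, nearly equal in both 15 min cultures, and rose by 2.44 (SE 0.20, adjusted p = 6.73e-12). MEIS1, MEIS2, ZEB1, ZEB2, FOXP1 and FOXP2, named after their values were seen, rose by 1.84 (ZEB1) to 3.49 (ZEB2). HOXB7 fell by 1.78, with 20.04 and 15.7 CPM at 15 min, against 35.1 and 91.1 CPM at 0 min, and did not pass without culture 2 at 0 min (-0.94). DLX5, also lower, was named after its value was seen (-1.81). Of 313 tested zinc finger genes of the ZNF series 108 rose and 21 fell (median 0.70), although only 8 were called lower without culture 1 at 15 min and 11 without culture 2 at 15 min. ZNF330, a nucleolar protein, had 47.2 and 68.4 CPM at 15 min, against 243 and 192 CPM at 0 min.

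In 3 lists of chromatin regulators more genes were called higher than lower. Of 41 tested remodeller genes 19 rose and 3 fell (median 0.72). ARID1B, a DNA-binding subunit of the BAF complex, had 647 and 564 CPM at 15 min, against 76.1 and 60.2 CPM at 0 min, a rise of 3.14 (SE 0.21, adjusted p = 7.15e-13), and CHD9, a helicase remodeller, had 752 and 673 CPM at 15 min, against 189.8 and 117 CPM at 0 min. HLTF, a helicase of DNA damage tolerance, had 73.1 and 86.8 CPM at 15 min, against 265 and 204 CPM at 0 min and fell by 1.56. CHD4, of the repressive NuRD complex, and BRD8 fell by 0.92 and 1.06 and were named after their values were seen. Of 48 tested histone lysine methyltransferases and demethylases 25 rose and 4 fell (median 1.17). JMJD1C, a demethylase of histone H3, had 383 and 377 CPM at 15 min, against 59.2 and 63.3 CPM at 0 min, and KDM4C, which removes repressive methyl groups, had 81.5 and 79.3 CPM at 15 min, against 8.46 and 12.4 CPM at 0 min. SUV39H1, which writes the heterochromatin mark, had 11.6 and 10.3 CPM at 15 min, against 59.2 and 38.6 CPM at 0 min and fell by 2.16; in cDNA preparation 1 alone it did not pass (-1.28). SUV39H2, its paralogue, fell by 1.504, as did SETD3 and KDM5B, all 3 named after their values were seen. Of 32 tested Polycomb genes 12 rose and 5 fell (median 0.30), with 3 called lower without culture 2 at 15 min or without culture 2 at 0 min. PHF19, BMI1 and PCGF1, named after their values were seen, were lower beside RNF2 and RBBP4. PHC3, a subunit of the Polycomb repressive complex PRC1, had 133 and 114 CPM at 15 min, against 13.3 and 7.72 CPM at 0 min, and RNF2, the catalytic ligase of the same complex, had 11.6 and 15.7 CPM at 15 min, against 50.8 and 46.3 CPM at 0 min. RBBP4, a histone-binding subunit of several complexes, was called lower at -0.76, but stood at 0.01 with total counts and did not pass without culture 1 at 0 min (-0.53).

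The lists of Mediator and TFIID subunits held genes called in both directions, as 29.8% of all genes were higher and 24.6% lower. Mediator links enhancer-bound factors to RNA polymerase II, and of its 31 tested genes 11 rose (35.5%), 12 fell (38.7%) and 8 did not pass. The kinase module and tail genes MED13L, MED13, MED12L, CDK19 and MED15 rose by 1.34 (CDK19) to 2.70 (MED13L). MED13L, which holds the kinase module to the core, had 198 and 162 CPM at 15 min, against 35.1 and 18.5 CPM at 0 min. MED27, of the upper tail, had 42.0 and 43.8 CPM at 15 min, against 138 and 198 CPM at 0 min and fell by 1.96. CCNC, the cyclin of the kinase module, had 155 and 174 CPM at 15 min, against 406 and 346 CPM at 0 min; it was called lower, but not with total counts (-0.42). MED8, MED11, MED18 and MED31, small subunits of the head and middle, fell by 0.77 (MED31) to 1.87 (MED18). Subunits other than MED13L, MED27 and CCNC were named after their values were seen. With total counts as the only scaling 14 Mediator genes were higher and 2 lower, and the median of -0.61 became 0.16. The median was 0.07 with only the 4 cultures in the fit and 0.17 with cDNA preparation 2 alone. In the reported fit no member lies between -0.47 and 0.79, and why the median moved was not tested.

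TFIID, which holds the TATA-binding protein TBP and recognises core promoters, had 6 of 16 genes higher (37.5%) and 5 lower (31.2%), or 10 and 4 with total counts. TAF4B, a cell type specific variant of a scaffold subunit, had 181 and 175 CPM at 15 min, against 20.5 and 24.7 CPM at 0 min, a rise of 2.98. TAF9, a histone-fold subunit, had 136 and 192 CPM at 15 min, against 689 and 921 CPM at 0 min, a fall of 2.29, and its paralogue TAF9B had 27.2 and 40.3 CPM at 15 min, against 195 and 178 CPM at 0 min, a fall of 2.47. TAF3, TAF5, TAF8, TAF13 and TAF2 were the other subunits called higher and TAF10, TAF11 and TAF12 the other ones called lower, all named after their values were seen. Without culture 1 at 0 min 3 were called higher. TBP stood at 0.16 and did not pass the test. Of 11 tested RNA polymerase II subunits 9 fell and 0 rose (median -1.41). POLR2L and POLR2G, 2 of the small subunits, had 783 and 1113 CPM at 15 min, against 2872 and 2933 CPM at 0 min, and 187 and 217 CPM at 15 min, against 592 and 652 CPM at 0 min. The catalytic subunits POLR2A and POLR2B, named after their values were seen, were at 0.28 and -0.28 and were the pair that did not pass. With total counts 2 of the 11 were higher and 7 lower.

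**Figure D4:**
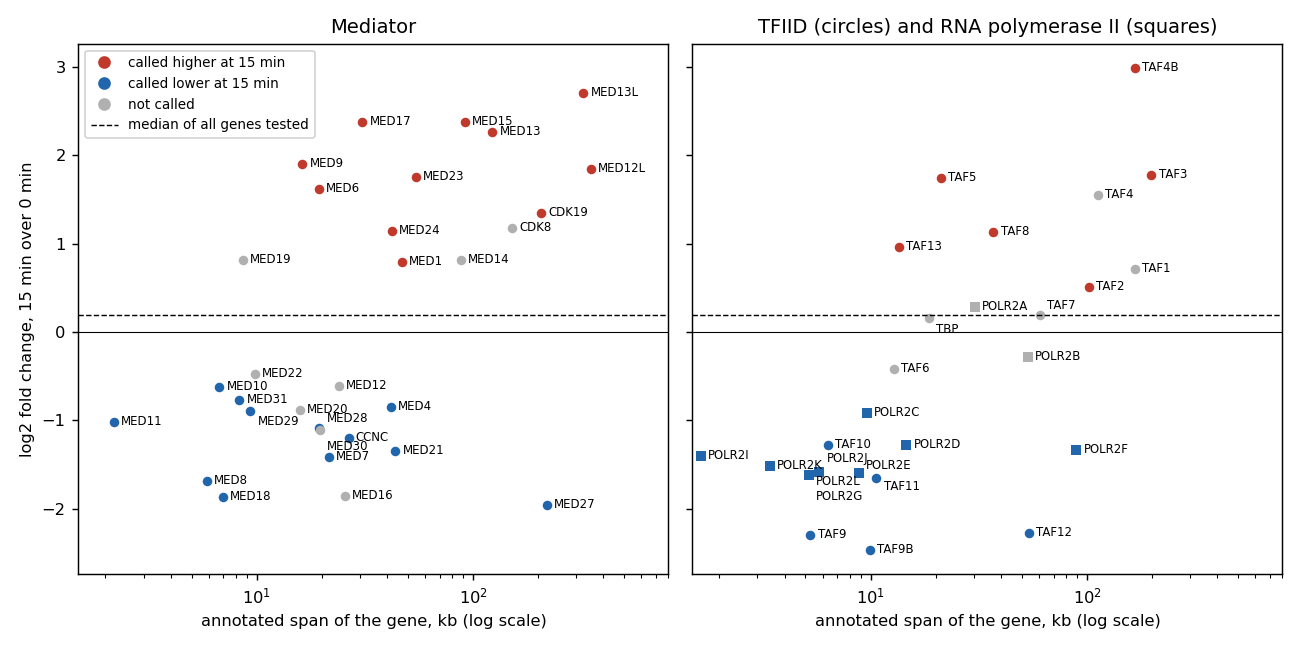
Log2 fold change (15 min over 0 min) against the annotated span of the gene in kb (log axis) for Mediator subunits on the left and TFIID and RNA polymerase II subunits on the right. Red is called higher, blue called lower and grey not called. Most Mediator genes called lower lie to the left, with MED27 at 220 kb an exception, and 9 of 11 RNA polymerase II genes are blue.

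Lists of RNA processing factors differed in their counts. The Sm and LSm proteins, the ring around spliceosomal RNAs, were lower, with 13 of 16 tested called lower and 0 higher (median -1.34). SNRPG, of that ring, had 1119 and 1496 CPM at 15 min, against 3222 and 3786 CPM at 0 min. Among U2 and tri-snRNP proteins 16 of 26 fell and 3 rose, or 10 lower and 8 higher with total counts. SF3A3 and SF3A2, partners in the SF3a complex of U2, moved in opposite directions. SF3A3 had 115 and 152 CPM at 15 min, against 577 and 564 CPM at 0 min and SF3A2 had 64.0 and 52.7 CPM at 15 min, against 4.83 and 12.4 CPM at 0 min. USP39 and SF3B3, picked after seeing their values, were the other 2 that rose. The median over U2 and tri-snRNP genes was -0.67, but 0.11 with total counts. Among hnRNP proteins, which coat nascent transcripts, 11 of 23 fell and 6 rose (median -0.49), or 7 lower and 9 higher with total counts (median 0.29). HNRNPL had 134 and 110.1 CPM at 15 min, against 18.1 and 6.18 CPM at 0 min and rose by 3.24, whereas HNRNPH1 had 169 and 169.6 CPM at 15 min, against 739.7 and 636 CPM at 0 min and fell by 2.03. SR proteins and CLK kinases, regulators of splice site choice, had 6 genes higher and 6 lower of 23 (26.1% each), near the shares over all genes, but 12 higher and 3 lower with total counts, where the median of -0.08 became 0.69. SRSF4 had 226 and 189 CPM at 15 min, against 65.3 and 57.1 CPM at 0 min and SRSF3 had 354 and 473 CPM at 15 min, against 1415 and 1685 CPM at 0 min. Of 22 3′ end processing genes 6 rose and 8 fell, but with total counts 10 were higher and 3 lower (median -0.16, or 0.60). The termination factor PCF11 had 89.9 and 67.7 CPM at 15 min, against 26.6 and 24.7 CPM at 0 min, and the poly(A) site factor NUDT21 had 175 and 169.6 CPM at 15 min, against 543 and 527 CPM at 0 min. Of 49 tested DEAD and DEAH box helicases 14 rose and 18 fell, but with total counts 22 were higher and 7 lower. The counts were 9 higher without culture 2 at 0 min and 11 lower without culture 1 at 15 min. DHX32 rose by 2.16 and DDX41, a helicase of splicing and innate sensing, fell by 2.09.

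Genes of mRNA decay were more often higher than lower. Of 39 tested mRNA decay genes 23 rose and TOB2 alone was called lower (median 0.96). SMG6, the endonuclease of nonsense-mediated decay, had 95.03 and 107 CPM at 15 min, against 18.1 and 12.4 CPM at 0 min. DICER1, DGCR8 and AGO2, of the microRNA pathway, rose by 2.52, 1.87 and 1.55, and the silencing scaffolds TNRC6A, TNRC6B and TNRC6C by 1.66, 1.73 and 1.81. These 6 were named after their values were seen. UPF1, the helicase of nonsense-mediated decay, also chosen, was at -0.02 and did not pass. The TOB2 call, at -0.86, was lost without culture 2 at 15 min (-0.55), without culture 1 at 0 min (-0.75) and without culture 2 at 0 min (-0.90).

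Genes of the ribosome fell almost without exception. Of 85 tested cytosolic ribosomal protein genes 83 fell, RPL7 rose by 0.93 and 1 did not pass (median -1.48, or -0.70 with total counts, where 67 were lower and 1 higher). They took 9.81% and 11.7% of the counts in the 15 min cultures, against 18.4% and 20.5% in the 0 min cultures. RPL8 took the most counts at both times. Of the 8 genes with the most counts at 15 min 7 encoded ribosomal proteins (RPL8, RPL35, RPS29, RPL36, RPLP1, RPLP0 and RPL23). RPLP0, of the ribosomal stalk, had 3066 and 3672 CPM at 15 min, against 12757 and 14942 CPM at 0 min, a fall of 2.04 (SE 0.20, adjusted p = 4.02e-10). RPL36 had 3276 and 3792 CPM at 15 min, against 7338 and 8579 CPM at 0 min and fell by 1.17. RPL3, at the peptidyl transferase centre, fell most within the list, with 459 and 613 CPM at 15 min, against 2528 and 2697 CPM at 0 min (-2.29). RPL7 had 193 and 235 CPM at 15 min, against 121 and 102 CPM at 0 min, and did not pass with cDNA preparation 2 alone (0.58). Processed pseudogenes of ribosomal protein genes are many and could take or lend reads, which makes single members uncertain. GNB2L1, a scaffold on the small subunit that is not a ribosomal protein by name, had 2032 and 2631 CPM at 15 min, against 9102 and 10295 CPM at 0 min.

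Most ribosomal protein mRNAs begin with an oligopyrimidine tract, which ties their translation to growth signals. The starts below, from RefSeq on GRCh38.p14, show 10 bases before the annotated start and 20 from it, with the pyrimidines that run unbroken from the start in capitals. They are shown to set genes with a run of at least 7 beside RPL3, with 4, RPS29, with 1, and MRPL51 and EIF3I, with 0. Runs are counted from the first listed start, and the starts used in these cells were not measured.
RPLP0: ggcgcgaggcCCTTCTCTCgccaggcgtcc
RPL35: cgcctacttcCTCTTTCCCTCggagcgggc
RPS23: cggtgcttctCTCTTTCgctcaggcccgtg
RPLP1: ggcgcgagagCCCCTTTCCTCagctgccgc
RPL29: cagcccctttCTCTTCCggttctaggcgct
GNB2L1: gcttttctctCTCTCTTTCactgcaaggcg
RPL3: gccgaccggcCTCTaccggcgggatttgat
RPS29: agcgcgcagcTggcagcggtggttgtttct
MRPL51: cggtgcgcccacagctgcctgggtaaggcc
EIF3I: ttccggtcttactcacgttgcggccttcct
These windows lie at chr12:120201092-120201121 on the minus strand (RPLP0), chr9:124861938-124861967 on the minus strand (RPL35), chr5:82278335-82278364 on the minus strand (RPS23), chr15:69452808-69452837 on the plus strand (RPLP1), chr3:51995876-51995905 on the minus strand (RPL29), chr5:181243887-181243916 on the minus strand (GNB2L1), chr22:39319604-39319633 on the minus strand (RPL3), chr14:49598691-49598720 on the minus strand (RPS29), chr12:6493243-6493272 on the minus strand (MRPL51) and chr1:32222397-32222426 on the plus strand (EIF3I). A run of at least 5 pyrimidines from the first listed start was present in 44 of the 68 cytosolic ribosomal protein genes with a sequence (64.7%), in 4 of 63 mitochondrial ribosomal protein genes (6.35%) and in 1425 of all 27305 promoters in the table (5.22%). Only the strand that reads as the mRNA was searched. The 44 ribosomal protein genes with the run had a median of -1.44 (range -2.22 to -0.74), and the 24 without it a median of -1.47 (range -2.29 to -0.72). All 68 were called lower.

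Other lists of the translation apparatus had more genes lower than higher. Of 71 tested mitochondrial ribosomal protein genes 60 fell and 2 rose (median -1.35), or 39 lower and 4 higher with total counts (median -0.57). MRPL51 had 394 and 492 CPM at 15 min, against 1404 and 1764 CPM at 0 min, and MRPS27, which rose by 0.70, had 324 and 301 CPM at 15 min, against 183 and 204 CPM at 0 min. MRPL3 rose by 0.47 and was named after its value was seen. Of 49 tested translation factors 32 fell and 3 rose (median -1.06), but with total counts 18 were lower and 14 higher (median -0.28). EIF1, which guides start codon choice, had 649.7 and 680.4 CPM at 15 min, against 1537 and 1819.5 CPM at 0 min. EEF2K, the kinase that brakes elongation, had 40.1 and 36.2 CPM at 15 min, against 2.42 and 7.72 CPM at 0 min and rose by 2.97. EIF4G3 and EIF4B, of cap-dependent initiation, rose by 2.95 and 1.37 and were named after their values were seen. Aminoacyl-tRNA synthetases, which charge tRNAs, had 17 of 35 genes lower and 7 higher (median -0.37), but 8 lower and 13 higher with total counts (median 0.40). The cytosolic enzyme NARS fell by 2.02, with 69.8 and 80.7 CPM at 15 min, against 311 and 301 CPM at 0 min, and the mitochondrial enzyme FARS2 rose by 1.49, with 142 and 159 CPM at 15 min, against 58.0 and 47.9 CPM at 0 min.

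Genes of protein folding and destruction were mostly lower, apart from the lists of ubiquitin-specific proteases and of F-box, Kelch-like and cullin genes. All 14 tested chaperonin and prefoldin genes fell (median -1.73, or -0.96 with total counts). CCT8, a subunit of the chaperonin that folds actin and tubulin, had 373 and 516 CPM at 15 min, against 2138 and 2243 CPM at 0 min. Of 39 tested proteasome genes 33 fell and PSME4 rose by 1.60 (median -1.62). PSMA4, of the core particle, had 467 and 642 CPM at 15 min, against 2242 and 2212 CPM at 0 min, and PSMC4, an ATPase of the cap, had 91.2 and 95.1 CPM at 15 min, against 486 and 517 CPM at 0 min. PSME4, an alternative activator of the core, had 191 and 166 CPM at 15 min, against 60.4 and 57.1 CPM at 0 min. Of 24 tested heat shock genes 17 fell and 0 rose (median -1.18), or 9 lower and 2 higher with total counts. HSP90AA1, the inducible Hsp90, had 1336 and 1535 CPM at 15 min, against 6318 and 5777 CPM at 0 min. Of 33 tested genes of endoplasmic reticulum translocation and glycosylation 28 fell and STT3B was called higher at 0.72 (median -1.36), a call lost without culture 1 at 15 min (0.55) and without culture 2 at 0 min (0.69). By contrast 22 of 46 tested ubiquitin-specific proteases rose, 3 fell and 21 did not pass (median 0.87). The F-box, Kelch-like and cullin genes encode substrate receptors and scaffolds of ubiquitin ligases. Of 73 tested 30 rose, 7 fell and 36 did not pass (median 0.76). USP11, USP16 and USP46 were the proteases that fell, of which USP16 and USP46 were named after their values were seen and USP11 did not pass with total counts (-0.55). USP32 had 167 and 114 CPM at 15 min, against 19.3 and 24.7 CPM at 0 min, and FBXO34 had 151 and 111 CPM at 15 min, against 10.9 and 13.9 CPM at 0 min. SKP2, the F-box receptor for the inhibitor p27, had 37.5 and 55.4 CPM at 15 min, against 215 and 188 CPM at 0 min and fell by 2.12.

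Nuclear genes of energy metabolism were mostly lower. All 34 tested genes of respiratory chain complex I fell (median -1.43), as did 36 of 40 of complexes II to V (median -1.37) and 19 of 21 mitochondrial import genes (median -1.44). With total counts 23, 26 and 11 of these lists were lower, with medians of -0.66, -0.60 and -0.66. NDUFB5, an accessory subunit of complex I, had 55.6 and 56.8 CPM at 15 min, against 313 and 276 CPM at 0 min. ATP5A1, the alpha subunit of ATP synthase, had 175 and 213 CPM at 15 min, against 887 and 939 CPM at 0 min. TOMM22, the central receptor of the outer membrane translocase, had 97.6 and 163 CPM at 15 min, against 806 and 849.5 CPM at 0 min and fell by 2.67 (SE 0.20, adjusted p = 2.06e-12). SDHC, a membrane subunit of complex II, was called higher at 0.78, and the call was lost in turn without each of the 4 cultures (0.75 to 0.86). Of 11 tested mitochondrially encoded transcripts 7 fell and 0 rose (median -0.54), but with total counts 3 were higher and 1 lower (median 0.24). They held 1.82% and 1.93% of the counts at 15 min, against 1.80% and 1.87% at 0 min. Of 20 tested glycolysis genes, a list that includes transporters, 11 fell and 1 rose (median -1.001). With total counts 8 were lower and 4 higher (median -0.23). LDHA, which turns pyruvate into lactate, had 523 and 734 CPM at 15 min, against 2993 and 3423 CPM at 0 min and fell by 2.35. HK2, the first enzyme of the path, was called higher at 0.96, but not without culture 1 at 15 min (0.88), culture 2 at 15 min (1.10) or culture 2 at 0 min (0.53). Of 24 tested cholesterol biosynthesis genes 12 fell and 5 rose (median -0.88), or 3 rose without culture 2 at 0 min. With total counts 6 were lower and 7 higher. EBP, a late sterol isomerase, had 70.5 and 106 CPM at 15 min, against 429 and 469.6 CPM at 0 min and fell by 2.35, whereas HMGCS1, an early enzyme of the pathway, had 147 and 129.9 CPM at 15 min, against 43.5 and 75.7 CPM at 0 min and rose by 1.25. SCAP, INSIG1 and SREBF1 (the last with 0 counts at 0 min), which control the pathway, also rose and were named after their values were seen.

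Tubulins and actin genes were more often lower and kinesins and centrosomal genes more often higher, while the balance of replication and mitosis genes turned with the scaling. Of 49 tested DNA replication genes 26 fell and 10 rose (median -0.77), but with total counts 14 were lower and 17 higher (median 0.01). MCM7, of the replicative helicase, had 357 and 356 CPM at 15 min, against 1104 and 1162 CPM at 0 min. FEN1, which trims Okazaki fragments, had 67.2 and 67.0 CPM at 15 min, against 286 and 230.1 CPM at 0 min. Of 43 mitosis genes 26 fell and 2 rose (median -0.82), but with total counts 13 were lower and 14 higher (median -0.04). MAD2L1, of the spindle checkpoint, had 123.5 and 201 CPM at 15 min, against 615 and 840.2 CPM at 0 min, and ANLN, a scaffold of the cleavage furrow, had 204 and 196 CPM at 15 min, against 95.5 and 35.5 CPM at 0 min. KIF20A, a motor of cytokinesis, was the other gene that rose and was named after its value was seen. Of 13 tested tubulin genes 8 fell and 0 rose (median -1.84), with TUBA1B at 1389 and 1659 CPM at 15 min, against 6034 and 6549 CPM at 0 min. Of 29 tested kinesins 12 rose and 3 fell (median 0.52), and of 27 tested centrosomal CEP genes 12 rose and 2 fell (median 0.82). KIF13A, a vesicle motor, had 123.5 and 111 CPM at 15 min, against 10.9 and 18.5 CPM at 0 min. KIF9, KIF22 and KIF3A were lower, and so were CEP70 and CEP41; of these KIF9 did not pass with cDNA preparation 2 alone (-1.38) and CEP70 neither with total counts (-0.68) nor with cDNA preparation 1 alone (-0.50). KIF22, KIF3A and CEP41 were named after their values were seen. Of 35 tested actin, myosin and actin regulator genes 21 fell and 5 rose (median -1.41), or 14 lower and 9 higher with total counts, and 3 higher without culture 1 at 15 min or without culture 2 at 0 min. PFN2, which delivers actin monomers, had 62.7 and 101 CPM at 15 min, against 453 and 468 CPM at 0 min, and VCL, which anchors actin at adhesions, had 229 and 192 CPM at 15 min, against 55.6 and 66.4 CPM at 0 min. TPM4, ACTR3 and RDX also rose and were named after their values were seen. Of 29 tested nucleoporins 8 rose and 9 fell, near the shares over all genes, but with total counts 17 were higher and 2 lower. NUP210, a membrane ring protein, had 119.6 and 116 CPM at 15 min, against 7.25 and 10.8 CPM at 0 min, and SEC13, a coat protein shared with vesicles, had 226 and 265 CPM at 15 min, against 1029.8 and 1191 CPM at 0 min.

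Histone genes were called in both directions. Of 22 tested core histone genes 7 rose (31.8%) and 4 fell (18.2%), near the shares over all genes (median 0.28), or 2 fell without culture 1 at 15 min. HIST1H4C, an H4 gene, had 2727 and 2279.9 CPM at 15 min, against 6928 and 8640.4 CPM at 0 min and fell by 1.64, and HIST1H3D had 159.7 and 101 CPM at 15 min, against 15.7 and 16.99 CPM at 0 min and rose by 3.00. Of 8 tested replacement histone genes, which are made outside S phase, 3 fell and 2 rose (median -0.67, or 0.11 with total counts). HIST2H2BF, HIST1H2BK and HIST1H3J were the other core genes that fell, and H3F3B and H2AFY the other replacement genes called lower and higher; these 5 were named after their values were seen. H2AFZ, the variant H2A.Z, had 954 and 1305 CPM at 15 min, against 4549 and 5233 CPM at 0 min, and H3F3A, a gene of H3.3, had 515 and 702 CPM at 15 min, against 3014 and 3006 CPM at 0 min. H2AFY2, a macroH2A gene, rose by 1.84, but did not pass with cDNA preparation 2 alone (1.37). Core histone genes have near-identical copies and their mRNAs lack a poly(A) tail in most cells, so their counts are uncertain.

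Long noncoding genes were more often higher than lower. Of 38 tested LINC genes 17 rose and 3 fell (median 1.74, or 1.55 at the bound). LINC01004 had 199.8 and 169.6 CPM at 15 min, against 4.83 and 27.8 CPM at 0 min, and LINC00998 had 111 and 96.4 CPM at 15 min, against 393 and 307 CPM at 0 min. LINC00493 and LINC00116, the second named after its value was seen, also fell. Of 126 tested antisense genes 55 rose and 8 fell (median 1.03, or 1.00 at the bound), with 3 lower without culture 2 at 15 min and 5 lower without culture 1 at 15 min or without culture 2 at 0 min. IPO9-AS1 had 58.2 and 61.5 CPM at 15 min, against 3.63 and 3.09 CPM at 0 min, and CEBPZ-AS1 had 44.6 and 43.8 CPM at 15 min, against 202 and 202 CPM at 0 min. No source says whether strand was used in counting, so reads of an antisense gene and of its partner cannot be told apart. Among 11 tested nuclear noncoding RNAs RMRP and MALAT1 fell and 4 rose (KCNQ1OT1, FTX, TUG1 and NEAT1, the last 3 named after their values were seen). KCNQ1OT1, which silences an imprinted cluster, had 126 and 129 CPM at 15 min, against 25.4 and 15.4 CPM at 0 min. MALAT1, a stable RNA of nuclear speckles, had 2305 and 2486 CPM at 15 min, against 5219 and 4875 CPM at 0 min; its fall of 1.08 did not pass with total counts (-0.30). Of 10 tested snoRNA host genes ZFAS1 and EPB41L4A-AS1 rose and SNHG10, NOP56 and SNHG9 fell (5 higher and 2 lower with total counts), of which EPB41L4A-AS1 and SNHG9 were named after their values were seen. ZFAS1 had 475 and 414 CPM at 15 min, against 166 and 215 CPM at 0 min. Of 5 tested microRNA host genes 4 rose (MIR181A1HG, LINC00478, MIR503HG and MIR22HG, the last 3 named after their values were seen) and MIR4458HG fell by 1.31, or -0.53 with total counts, which did not pass, with 2 higher without culture 1 at 0 min. MIR181A1HG, host of a miR-181 cluster, had 147 and 144 CPM at 15 min, against 18.1 and 16.99 CPM at 0 min.

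The change went with the length of the gene. Spans were taken from GENCODE v29 by symbol, for 9527 of the 10439 genes tested (91.3%), of which 9330 were protein-coding. The median span was 91.3 kb for coding genes called higher, 17.8 kb for those called lower and 35.5 kb for the rest. Of 623 coding genes under 5 kb 7.38% were called higher and 50.7% lower (median -1.04). Of 834 genes of 200 kb or more 68% were called higher and 3.12% lower (median 1.70). Across coding genes, which are not independent replicates, the Spearman rank correlation of the change was 0.505 with the span, 0.459 with the longest transcript, 0.316 with the number of exons and -0.273 with the mean CPM. Span and level are linked, so the classes were also compared at like levels. Between 100 and 300 CPM 278 of 368 genes of 100 kb or more rose and 38 fell (median 1.43), while 25 of 435 genes under 20 kb rose and 374 fell (median -1.41). The contrast was smaller at lower levels, with medians of 1.58 and -0.87 between 30 and 100 CPM and 1.11 and -0.40 between 10 and 30 CPM. In the lowest of these classes 259 of 543 genes of 100 kb or more rose and 14 fell, while 91 of 833 under 20 kb rose and 156 fell.

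**Figure D5:**
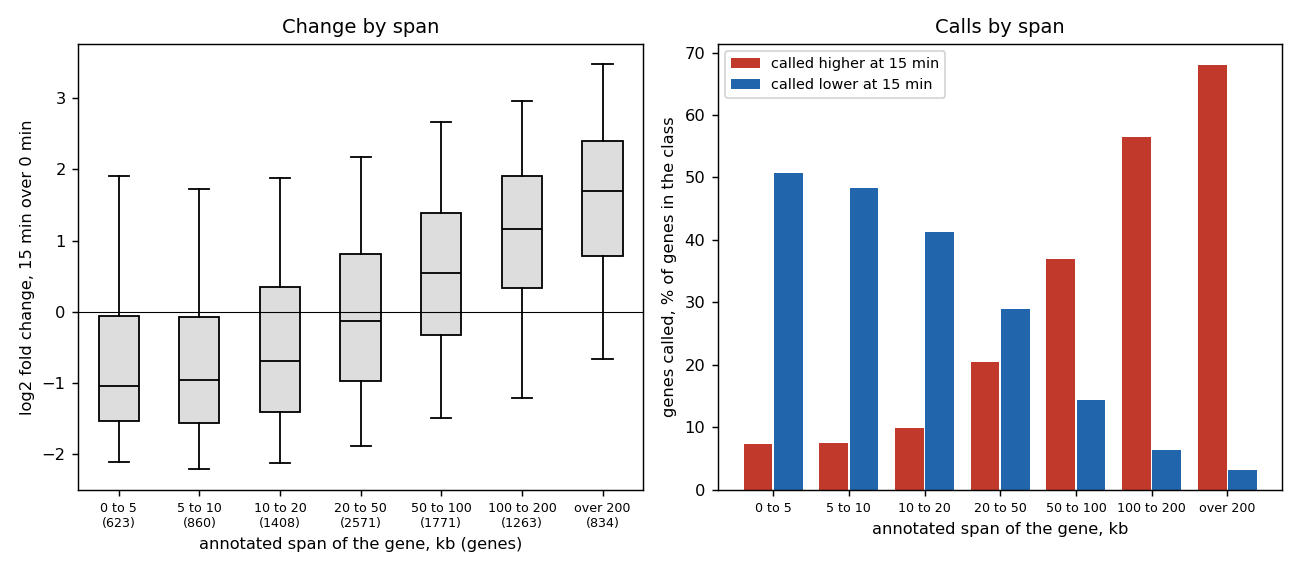
Left, log2 fold change (15 min over 0 min) of protein-coding genes in 7 classes of annotated span; boxes are quartiles, the line is the median and whiskers reach the 5th and 95th percentiles. Right, the percentage of each class called higher (red) or lower (blue). The median climbs from -1.04 under 5 kb to 1.70 at 200 kb and more.

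Of 41 lists with genes called in both directions, 37 had a longer median span for those called higher and 4 a shorter one. Lists share genes, and some had 1 gene called in a direction. Mediator genes called higher had a median span of 54.3 kb and those called lower 14.4 kb, and in TFIID the medians were 69.5 and 9.96 kb. Among mRNA decay genes those called higher had a median of 123.1 kb, and among chromatin remodellers those called higher had 141 kb and those called lower 44.4 kb. In the SR and CLK list the medians were 27.61 and 27.59 kb. The 4 lists with the shorter span for genes called higher were antisense genes (31.99 and 77.2 kb), microRNA hosts (5.68 and 12.4 kb), Wnt signalling (84.8 and 134.6 kb) and cytosolic ribosomal proteins (5.52 and 5.61 kb). Induced transcription factors called higher had a median span of 5.25 kb. SOX4, with a span of 5.85 kb, rose by 2.44, and FOS, with 3.46 kb, by 3.45. MED27, with 220 kb, fell by 1.96, and WLS, with 135 kb, by 1.75. The part of span, transcript length or level in these changes was not tested.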

How the data were processed

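The authors deposited raw counts for 32738 entries named by gene symbol, and 17215 entries had a count at 15 or 0 min. The alignment used STAR and the hg19 build, per the submitters' processing notes. The aligner's version, the counting rule and any use of molecular identifiers are not stated there. Barcodes in headers and labels tied each column to its sample. No row without a gene name was present, and 186 entries share a symbol with another entry.

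The counts of the 4 libraries of each culture were summed. The test was edgeR's (4.0.16, R 4.3.3) two-sided quasi-likelihood F test with TMM scaling and filterByExpr. One model held all 8 cultures and left 4 residual degrees of freedom. P-values were Benjamini-Hochberg adjusted over 10439 genes. Calls use adjusted p under 0.05. The biological coefficient of variation was 15.3%. An exact permutation test of 2 cultures against 2 has a smallest p of 0.333 and was not used. Culture SDs rest on n = 2, and depth limits genes of few counts. The fit was also run on simulated counts in which few genes changed. That run cannot check the scaling, since 54.4% of the genes tested were called in the data.

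The comparison, the gene lists and their members were chosen with earlier results of these data known. Some genes stand on more than 1 list, such as EZH2 and KDM2B. Named genes are the 15 largest called rises and falls without overlap between times (mean of at least 20 CPM and at least 4 counts at the lower time), 5 genes with 0 to 3 counts at 0 min, and for each list the most abundant member and the largest called rise and fall. The 8 genes with the most counts at each time were added. Some genes that the rule named are not reported here. Gene spans came from GENCODE v29 by symbol and start sequences from RefSeq on GRCh38.p14 (first listed start). No coordinate of the hg19 counts is given. Promoter sequences covered 79.58% of the genes tested, too few to compare motifs between called sets. Alternatives were other scalings, filters, DESeq2 1.42.0, subsets of libraries and each culture left out.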

Additional observations from a re-analysis of the deposited data

How the results depend on the processing

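The counts of genes called higher and lower stayed within 1.5 times the reported ones in all alternatives but 1. Scaling by total counts gave 4901 higher and 1307 lower. In that setting RBBP4, called lower at -0.76, stood at 0.0073, ZNF24, called lower at -0.46, at 0.31, USP10, not called at -0.16, at 0.62 and HIST1H1C, not called at -0.15, at 0.64. With cDNA preparation 2 only HIST1H1C also stood at 0.64. RLE size factors gave 2874 higher and 2758 lower, and DESeq2 2536 and 2499. A replicate block gave 3058 and 2521; the replicate numbers were not taken to pair the cultures, since the deviations of like-numbered cultures correlated at 0.02 across genes. Leaving out 1 culture at a time gave 2563 to 2861 higher and 2070 to 2347 lower. Of the 193 named genes the ZNF24 call was also lost without culture 1 at 15 min (-0.39), without culture 2 at 15 min (-0.46) and without culture 1 at 0 min (-0.34). PMAIP1, a p53 target at 0.41 (edgeR adjusted p = 0.0546), passed without culture 2 at 15 min (0.51) or at 0 min (0.63). With total counts 12 of 58 list medians took the other sign, among them those of RAB GTPases (-0.32 became 0.46) and snoRNA hosts (-0.19 became 0.58), and with RLE size factors 2 did, DEAD and DEAH box helicases (0.05 became -0.05) and nucleoporins (0.05 became -0.06). Depth limits genes of few counts: 3 counts over both cultures equal 0.997 CPM at 15 min and 2.03 CPM at 0 min. The causes of these shifts were not tested.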

Other observations

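Transporter and organelle genes, not described above, were called in both directions. Of 156 tested solute carriers 53 rose (33.97%) and 30 fell (19.2%), near the 29.8% and 24.6% of all genes (median 0.42), and with total counts 80 were higher and 14 lower. SLC25A5, the mitochondrial ADP and ATP carrier, had 431 and 583 CPM at 15 min, against 1945 and 2289 CPM at 0 min and fell by 2.06 (edgeR adjusted p = 7.29e-11). SLC9A7, a sodium and proton exchanger, had 38.1 and 38.3 CPM at 15 min, against 4.83 and 6.18 CPM at 0 min and rose by 2.79. Of 17 tested genes of the vacuolar ATPase, which acidifies lysosomes, 11 fell and 2 rose (median -0.90), or 7 lower and 3 higher with total counts. ATP6V1G1 had 173 and 259 CPM at 15 min, against 799 and 856 CPM at 0 min, whereas ATP6V0A1, a membrane subunit, had 167 and 142 CPM at 15 min, against 64.1 and 55.6 CPM at 0 min; ATP6V0A2 also rose and was named after its value was seen. Of 35 tested RAB GTPases, the switches of vesicle traffic, 8 rose (22.9%) and 6 fell (17.1%), or 5 rose without culture 1 at 15 min. With total counts 12 were higher and 3 lower, and with RLE size factors 7 and 8. RAB12 had 68.5 and 57.4 CPM at 15 min, against 6.04 and 7.72 CPM at 0 min and RAB13 had 56.2 and 57.4 CPM at 15 min, against 322 and 253 CPM at 0 min. HIST1H1D was the 1 linker histone gene called of 5 tested, with 69.2 and 54.0 CPM at 15 min, against 26.6 and 23.2 CPM at 0 min.

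More gene entries were detected at 15 min than at 0 min. Of the 32738 entries 16570 had a count at 15 min and 13519 at 0 min, with 3696 seen at 15 min alone and 645 at 0 min alone. Among entries with at least 10 counts at one time and 0 at the other, 380 were seen at 15 min and 2 at 0 min. These 2 were HMHA1, with 0 and 0 counts at 15 min, against 1 and 46 at 0 min, and ARPC4, of the actin-nucleating Arp2/3 complex, with 0 and 0 counts at 15 min, against 7 and 4 at 0 min. The 46 counts of HMHA1 in 1 culture stand against 1 in the other. The totals were larger at 15 min, and how much of the gap comes from depth was not tested.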
